A study of Mus musculus with 6 samples.

Results

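The genes for 10 inflammatory and regulatory cytokines or cytokine subunits, Tnf, Il6, Il10, Il12b, Il27, Ebi3, Tgfb1, Osm, Csf1 and Il16, were examined in splenic monocytes that had not been stimulated ex vivo. They were selected by name, each on a single identifier, out of 46072 gene identifiers, and all 10 passed the filter on low counts and were among the 16138 genes tested. The monocytes came from adult female C57BL/6 mice. The 3 mice of the Con group were gavaged with water and the 3 mice of the Van group with vancomycin, a poorly absorbed oral antibiotic, at 2 mg per mouse per day split over paired gavages. Gavage lasted 6 days in both groups and was followed by 6 to 8 days of rest, by the labels. The paper named below gives 8 days of rest for its sequenced mice. Monocytes were enriched from spleen with a commercial isolation kit, and each library (1 per mouse) held polyadenylated RNA of that enriched fraction. The paper that describes this design measured IL-6 and TNF released by stimulated monocytes. It also sequenced RNA of unstimulated monocytes and, by pathway analysis, reported IL-6 signaling as activated in Van against Con. Its data statement names another deposit, and these libraries were matched to it by treatment and tissue. It reports 962 genes called with DESeq2 and 24303 expressed genes. The same numbers were obtained here, 24303 being identifiers with a count above 0. The comparison here asks what the cytokine transcripts looked like before any stimulus.

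Cytokine genes are read in families. TNF is a trimeric inflammatory cytokine made as a membrane protein and shed by a protease, and IL-6 and oncostatin M (Osm) belong to the family of cytokines that signal through the shared receptor chain gp130 (Il6st). IL-12 and its relatives are pairs of subunits, in which the p40 chain (Il12b) pairs with p35 (Il12a) or p19 (Il23a), and EBI3 pairs with p28 (Il27) to form IL-27 or with p35. IL-10 and TGF-β1 (Tgfb1) restrain inflammation, M-CSF (Csf1) supports the survival of monocytes and macrophages, and IL-16 is a chemoattractant that binds CD4. In myeloid cells, transcripts such as Tnf and Il6 are kept low at rest and rise quickly after Toll-like receptor signals, partly by transcription through NF-κB and partly by control of mRNA decay at AU-rich elements.

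The AU-rich stretches of the 3′ untranslated regions (UTRs) are shown because they are the part of these transcripts through which decay factors such as ZFP36 act. In GENCODE M21 (GRCm38), the nonamer TTATTTATT was searched on the transcript strand, overlapping matches included, in 1 transcript per gene. It was present in 2 of the 10 cytokine genes, Tnf and Il27, and in 7.19% of 21012 genes with an annotated 3′ UTR. Tnf held 5 copies, of which 4 lay within 30 bases at chr17:35199674-35199703 (minus strand). Il27 held 2 copies, 1 of which lies in the 30 bases shown, at chr7:126589078-126589107 (minus strand). Capitals mark the bases of the nonamers.

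Tnf, 3′ UTR: ttaTTATTTATTTATTATTTATTTATTtgc

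Il27, 3′ UTR: ttcttggatatTTATTTATTtttaagaaat

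The shorter pentamer ATTTA was found 8 times in Tnf, 6 times each in Il6, Il10, Il12b and Osm, 5 times in Il27, 4 times in Csf1 and once each in Ebi3 and Tgfb1. Il16 held none. The pentamer lies within the nonamer, so that the counts of Tnf and Il27 share bases.

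Promoter windows from 250 bases before to 50 bases after the start (RefSeq, GRCm38.p6) were searched on both strands for GGGANTTTC, the core of a common form of the NF-κB site, because NF-κB drives several of these genes after stimulation. Of the 10 genes, 7 matched this table, with 9 windows in all, and Il10, Il27 and Osm did not. The motif was present in 3 of the 9 windows and in 1.11% of all 32851 windows. In Il6 it lay 44 to 36 bases before the start, in Csf1 153 to 145 bases before it, and in Il16 49 to 41 bases before 1 of its 3 starts. Capitals mark the motif, which in Csf1 is on the opposite strand to the gene.

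Il6 promoter, chr5:30013045-30013103 (plus strand): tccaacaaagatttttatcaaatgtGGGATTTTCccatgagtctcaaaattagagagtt

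Csf1 promoter, chr3:107760589-107760647 (minus strand): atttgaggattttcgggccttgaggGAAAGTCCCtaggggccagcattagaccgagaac

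Il16 promoter, chr7:83655511-83655569 (minus strand): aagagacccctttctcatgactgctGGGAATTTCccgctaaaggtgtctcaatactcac

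A match describes letters in a window and no binding was measured here.

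The libraries held 43383919 to 61834407 estimated counts each. Their decimals fit whole numbers of bases divided by 75 (times 75, 52.3% to 55% of values came within 0.05 of a whole number, against 9.56% to 9.98% times 74). With 100-base reads at both ends of a fragment, as stated, 1 count would stand for 0.375 fragments and the libraries would hold an estimated 16.3 to 23.2M fragments. Monocyte markers were high in every library, with Csf1r between 2985 and 3619 CPM (counts scaled to library size with TMM factors) and Ly6c2 between 262 and 404 CPM. Several defining markers of lymphocytes and granulocytes were low. Ly6g was at 0 in all 6 libraries, Cd3e stayed between 0.653 and 0.991 CPM, Cd79a between 1.14 and 2.78 CPM and Foxp3 between 0.266 and 0.812 CPM. Ncr1 had counts in 1 library of each group and Mcpt8 in all 3 Con libraries and 1 Van library, in each case below 0.35 CPM. Other markers of these and further cells were higher. Of the neutrophil markers Mmp8 lay between 30.4 and 89.6 CPM, of the B cell markers Cd22 between 18.2 and 28.2 CPM and Cd79b between 11.8 and 15.7 CPM, of the plasma cell markers Jchain between 51.1 and 96.7 CPM, and of the red pulp macrophage markers C1qa between 258 and 412 CPM and Cd163 between 62.3 and 120 CPM. The part of such cells in the cytokine levels was not tested. Erythroid markers were higher in Van, with 5 of the 9 tested called (Alas2, Hba-a1, Hba-a2, Hbb-bs and Hbb-bt), and summed to 84.7 to 172 CPM in Con and 285 to 625 CPM in Van. Hbb-bs, a beta globin, lay between 24.1 and 46.9 CPM in Con and 80.7 and 180.3 CPM in Van.

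Per transcript length, the 10 cytokine transcripts at rest ranged from the percentile 20.5 (Il6) to the percentile 98.5 (Tgfb1) of the FPKM of the genes tested. Tgfb1 was the most abundant at a mean of 262 FPKM over the 6 libraries (range 248 to 272). Osm (49.3 FPKM, 40.7 to 62.3), Il16 (43.9 FPKM, 36.6 to 53.5) and Ebi3 (34.1 FPKM, 32.5 to 35) followed, Osm and Il16 with overlapping ranges. Il27 (9.87 FPKM, 7.48 to 11.5) and Tnf (5.48 FPKM, 3.72 to 7.2) were intermediate, Tnf near the middle of the genes tested at the percentile 53.7. At the low end were Csf1 (1.88 FPKM, 1.3 to 2.75), Il12b (1.56 FPKM, 0.9 to 2.39), Il10 (1.39 FPKM, 0.795 to 2.47) and Il6 (0.54 FPKM, 0.283 to 0.876). The neighbours in this order from Csf1 to Il6 overlapped, as Osm and Il16 did, whereas the ranges of the other neighbours were separate. The gap between Il27 and Tnf was the narrowest of these, with the lowest Il27 value of 7.48 FPKM beside the highest Tnf value of 7.2 FPKM.

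**Figure D1:**
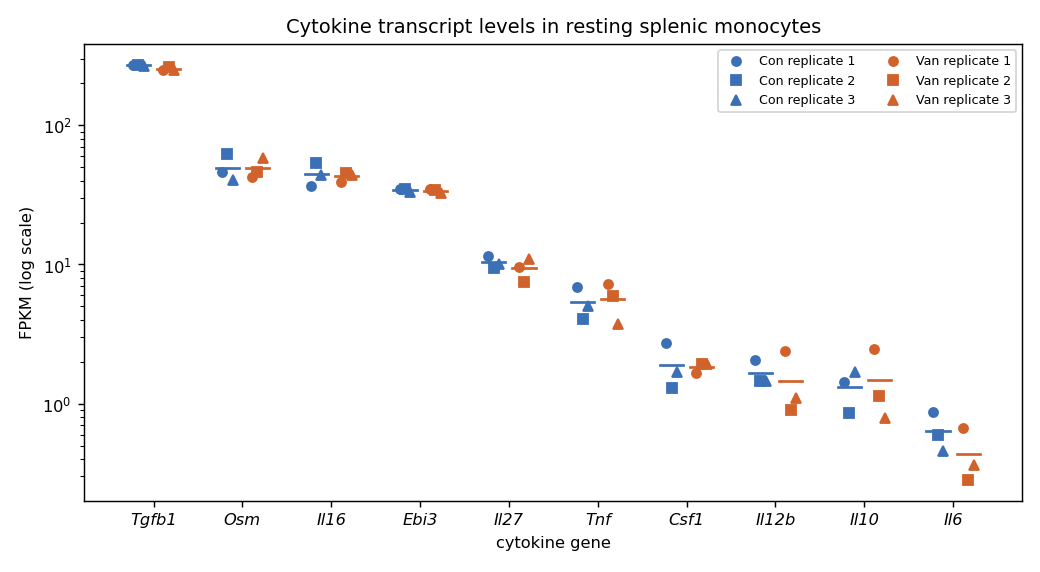
FPKM (log scale) of the 10 cytokine genes in each of the 6 libraries, Con in blue and Van in orange, with a marker shape per replicate and a bar at each group mean. Tgfb1 lies between 248 and 272 FPKM and Il6 between 0.283 and 0.876 FPKM, and the colours overlap for each gene but Tgfb1.

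Il6 had the fewest counts of the 10 genes. The Con libraries held 96.8, 68.3 and 37.8 counts (36.3, 25.6 and 14.2 fragments) and the Van libraries 99.6, 33.2 and 54.5 counts (37.3, 12.5 and 20.4 fragments). Replicate 1 was the highest of each group. Il10 had 117, 80.8 and 112 counts in Con and 237, 88.7 and 70.3 in Van, or 26.4 to 89 fragments. Il12b had 242, 196 and 139 counts in Con and 326, 100.4 and 138 in Van, or 37.7 to 122 fragments. For both genes the single highest library was Van replicate 1, while another Van library was the lowest. Csf1 and Tnf, with at least 123 and 154 fragments in each library, were less limited by counting.

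None of the 10 cytokine transcripts passed the test between the groups. With edgeR's quasi-likelihood test and Benjamini-Hochberg adjustment over all genes tested, 0 of the 10 were called (adjusted p no higher than 0.05), where 2% of all genes were called (1.08% higher and 0.917% lower in Van). At an unadjusted p under 0.05 in edgeR the number was also 0 of 10, against 16.5% of all genes, and DESeq2 and limma called 0 of 10. The log2 fold changes of Van against Con lay between -0.25 and 0.16, with 2 above and 8 below 0, a median of -0.09, and a median of -0.001 over all genes tested. The values of the 2 groups overlapped for 9 genes and were separate for 1, Tgfb1, where 22.5% of all genes were separate. In bulk RNA, fewer cells of a type and less RNA per cell cannot be told apart, which holds for each value given here.

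**Figure D2:**
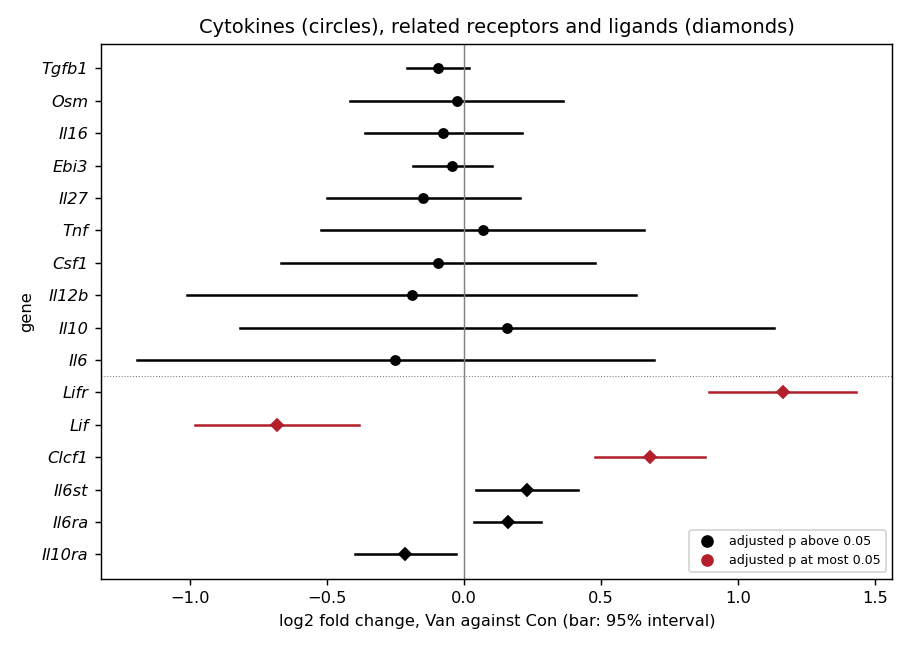
Log2 fold change of Van against Con with its 95% interval (x axis) for the 10 cytokine genes in order of level (circles) and for related receptor and ligand genes (diamonds), red where the adjusted p was at most 0.05. The intervals of all 10 cytokines include 0, with that of Tgfb1 the narrowest and that of Il10 the widest. Those of Lifr, Clcf1, Lif, Il6st, Il6ra and Il10ra do not include 0, and of these Lifr, Clcf1 and Lif had an adjusted p of at most 0.05.

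Among the inflammatory cytokines, Tnf (ENSMUSG00000024401, chr17:35199381-35202007, minus strand, 4 exons) measured 13.7, 8.05 and 9.65 CPM in the Con mice and 14.1, 11.4 and 7.29 CPM in the Van mice. The highest and the lowest of the 6 values were both in Van. The group means were 10.5 ± 2.91 and 10.9 ± 3.44 CPM (SD, n = 3 each), and the log2 fold change was 0.07 ± 0.26 (SE, adjusted p = 0.938, edgeR). Its 95% interval, from -0.52 to 0.66, excludes falls of more than 30.4% and rises of more than 57.7%. The sign depended on single mice, the log2 fold change being -0.16 without Van replicate 1 and 0.31 without Con replicate 1.

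Il6 (ENSMUSG00000025746, chr5:30013114-30019981, plus strand, 5 exons) measured 1.87, 1.14 and 0.873 CPM in Con and 1.63, 0.652 and 0.967 CPM in Van. The groups overlapped over most of their range. Its log2 fold change was -0.25 ± 0.41 (SE, adjusted p = 0.834, edgeR). The interval from -1.2 to 0.69, the widest of the 10 genes but for that of Il10, does not exclude a fall by up to 56.3% or a rise by up to 61.8%. Without Van replicate 1 the value was -0.67, and without Con replicate 1 it was 0.11.

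Il12b (ENSMUSG00000004296, chr11:44400063-44414033, plus strand, 8 exons) measured 4.66, 3.27 and 3.21 CPM in Con and 5.33, 1.97 and 2.45 CPM in Van. Van replicate 1 was above all Con mice, and the other two Van mice were below all of them. The log2 fold change was -0.19 ± 0.36 (SE, 95% interval -1.01 to 0.63, adjusted p = 0.859, edgeR). Leaving out Van replicate 1 moved it to -0.75, which edgeR gave an unadjusted p of 0.0176 and an adjusted p of 0.207, whereas without Van replicate 2 it was 0.07. The partner subunits were near the limit of detection and were not tested. Il12a, the p35 chain, had 2.68, 3.95 and 0 counts in Con and 15 counts in Van replicate 1 alone among the Van mice, and Il23a, the p19 chain, had 5.19 counts in Van replicate 3 and none elsewhere.

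Osm (ENSMUSG00000058755, chr11:4236420-4241026, plus strand, 3 exons) was more abundant than Tnf, Il6 and Il12b, at 124, 169 and 107 CPM in Con and 115, 122 and 155 CPM in Van. Both the lowest and the highest mouse were in Con. The log2 fold change was -0.03 ± 0.17 (SE, 95% interval -0.42 to 0.36, adjusted p = 0.961, edgeR), with -0.17 without Van replicate 3 and 0.18 without Con replicate 2.

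Of the regulatory cytokines, Tgfb1 (ENSMUSG00000002603, chr7:25687002-25705077, plus strand, 7 exons) measured 692, 699 and 663 CPM in Con and 642, 649 and 631 CPM in Van. Each Van mouse was below each Con mouse, which gave the smallest p that an exact two-sided permutation test allows with 3 mice against 3 (p = 0.1). The means were 685 ± 19 and 641 ± 8.62 CPM (SD, n = 3 each), a log2 fold change of -0.10 ± 0.05 (SE) with an adjusted p of 0.382 in edgeR. Its interval from -0.21 to 0.02 excludes falls of more than 13.5%. The value stayed between -0.12 and -0.08 with each library left out in turn. It did not pass the test in any of the 16 alternative analyses, in which its adjusted p was between 0.316 and 0.594, although limma on log2(FPKM + 1) gave an unadjusted p of 0.0327.

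Il10 (ENSMUSG00000016529, chr1:131019845-131024974, plus strand, 5 exons) measured 2.26, 1.35 and 2.6 CPM in Con and 3.88, 1.74 and 1.25 CPM in Van. Van replicate 1 was the highest and Van replicate 3 the lowest of the 6. The log2 fold change of 0.16 ± 0.43 (SE, 95% interval -0.82 to 1.13, adjusted p = 0.909, edgeR) leaves room for a change by a factor of 0.567 to 2.19. Without Van replicate 1 it was -0.46 and without Van replicate 3 it was 0.45. The ratio of Il10 to Tnf FPKM, a measure of the balance of a regulatory and an inflammatory transcript, was 0.251 ± 0.0743 in Con and 0.249 ± 0.082 in Van (SD, n = 3 each, exact permutation p = 1).

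The 2 subunits of IL-27 differed in how much they varied. Ebi3 (ENSMUSG00000003206, chr17:55952640-55957022, plus strand, 5 exons) measured 49.3, 49.4 and 45.9 CPM in Con and 48.6, 46.4 and 45.4 CPM in Van, and no library was more than 1.09 times another. Il27 (ENSMUSG00000044701, chr7:126589010-126594941, minus strand, 5 exons) measured 14.2, 11.6 and 12.2 CPM in Con and 11.8, 8.92 and 13.4 CPM in Van. The log2 fold change of Ebi3 was -0.04 ± 0.06 (SE, 95% interval -0.19 to 0.10, adjusted p = 0.81, edgeR) and excludes a fall of more than 12.1% or a rise of more than 7.18%. For Il27 it was -0.15 ± 0.16 (SE, 95% interval -0.50 to 0.20, adjusted p = 0.707, edgeR), and -0.002 without Van replicate 2. Ebi3 stood above Il27 in every library, by 3.04, 3.71 and 3.29 times in Con and 3.59, 4.54 and 2.95 times in Van on the FPKM scale, and this ratio did not separate the groups (exact permutation p = 0.7). Exons of Il27 overlap those of Apobr by up to 103 bases and exons of Ebi3 those of Gm16712 by up to 155 bases, on the opposite strand in both cases. The library kit keeps the strand, but it is not stated whether the counting used it.

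Csf1 (ENSMUSG00000014599, chr3:107741048-107760469, minus strand, 9 exons) measured 13.1, 6.25 and 7.59 CPM in Con and 7.27, 9.01 and 8.86 CPM in Van. Con replicate 1 stood above the other 5 mice, and without it the log2 fold change of -0.10 ± 0.25 (SE, 95% interval -0.67 to 0.48, adjusted p = 0.902, edgeR) became 0.28. It was also 0.004 and 0.03 in limma on log2(FPKM + 1) and log2(FPKM + 0.1). Il16 (ENSMUSG00000001741, chr7:83642825-83745726, minus strand, 19 exons) measured 139.6, 204 and 164 CPM in Con and 148, 167 and 167 CPM in Van. The 3 Van values lay inside the range of Con. Its log2 fold change was -0.08 ± 0.13 (SE, 95% interval -0.36 to 0.21, adjusted p = 0.835, edgeR) and 0.08 without Con replicate 2. Exons of Il16 overlap those of Stard5 by up to 1084 bases on the opposite strand, so that its level is uncertain by the reads of Stard5.

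The 10 genes differed widely in their spread between mice. The SD between mice of a group, in log2 CPM, was 0.0316 for Tgfb1 and 0.0548 for Ebi3, below that of nearly all genes (percentiles 1.73 and 9.31 among 15652 genes with counts in every library, median 0.156). It was 0.692 for Il10 (percentile 92.5), 0.611 for Il6 (90.1), 0.575 for Il12b (88.9), 0.441 for Tnf (82.4) and 0.41 for Csf1 (80.5). Osm, Il16 and Il27 were in between, at 0.289, 0.207 and 0.239. Counting error alone, taken from the fragments per library, would give 0.305 for Il6, so that its spread was 2 times the counting error. For Il10 and Il12b the spread was 3.05 and 3.23 times the counting error, for Tnf 4.41 times, for Il16 8.21 times and for Osm 10.2 times. For Ebi3 it was 1.17 times. These percentiles were not matched on level.

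**Figure D3:**
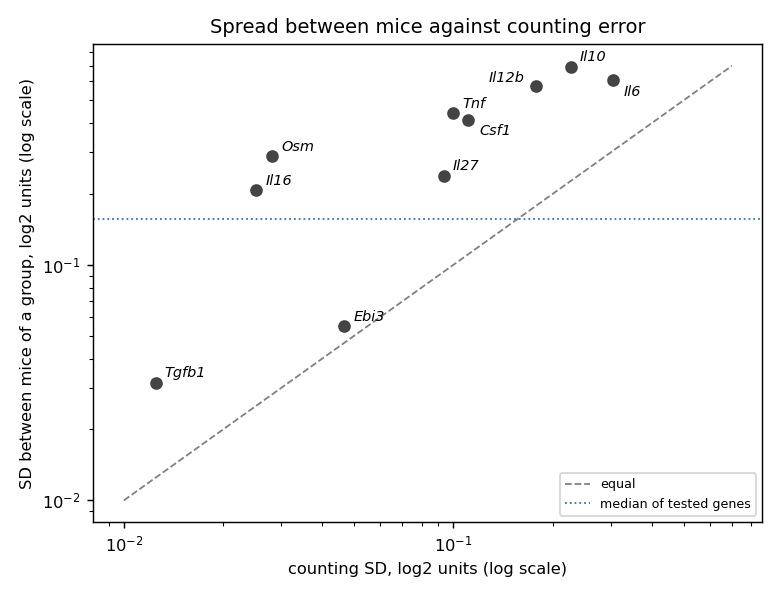
SD of log2 CPM between mice of a group (y axis, log2 units on a log scale) against the SD expected from counting fragments (x axis, log2 units on a log scale) for the 10 cytokine genes, with the dashed line at equality and the dotted line at the median of the tested genes, 0.156. Tgfb1 and Ebi3 lie below the dotted line and the other 8 genes above it, with Ebi3 closest to the dashed line.

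Over the 6 mice, no relation between the transcripts of any 2 of these cytokines passed adjustment, and with 6 libraries a single pair could not have passed it over 45 pairs whatever its r. The pair with the highest r of the 45 was Il6 with Il12b (Pearson's r of log2(CPM + 0.5) = 0.924, permutation p = 0.0139, adjusted p = 0.552, and Spearman's rho = 0.886, permutation p = 0.0333, adjusted p = 0.838, n = 6). Without the 2 mice farthest from the median of Il6, r was 0.78, and on deviations from the group means it was 0.918. The labels name no batch within which it could be repeated. Among all genes tested, the values of Tnf were most alike to those of Hoxa5 (r = 0.993), Il1rn (r = 0.992), which encodes the IL-1 receptor antagonist, and E430024P14Rik (r = 0.987). Those of Il6 were most alike to Tusc3 (r = 0.975), Fbxl20 (r = 0.968) and Nlrp10 (r = 0.968). These genes were picked for their r out of 16138 with only 6 libraries, and Hoxa5 had a mean of only 0.351 CPM, so that the values describe the choice and no relation is read from them.

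For TNF, IL-6, IL-10 and M-CSF, the receptor chains were more abundant than the cytokine. Csf1r, the M-CSF receptor, had a mean of 583 FPKM, Tnfrsf1b and Tnfrsf1a, the receptors of TNF, 351 and 160 FPKM, and Il10ra and Il10rb, the receptor of IL-10, 194 and 45.8 FPKM. The IL-6 receptor chains Il6ra and Il6st stood at 65 and 18 FPKM, far above Il6 at 0.54 FPKM. Tgfb1 was the reverse, at 262 FPKM above Tgfbr1 (37.7 FPKM) and Tgfbr2 (41.4 FPKM), as were Osm over Osmr (0.00884 FPKM) and Il16 over Cd4 (8.98 FPKM). Il27, at 9.87 FPKM, lay between its receptor chains Il27ra (1.33 FPKM) and Il6st (18 FPKM). Osmr, the chain through which oncostatin M mainly signals in mice, had 9.07 and 8.43 counts in Con replicates 2 and 3 and none in the other 4 libraries. For IL-12, the chain Il12rb2 (6.99 FPKM) was present well above Il12rb1 (0.191 FPKM). A level of RNA does not give the level of a receptor on the cell surface.

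**Figure D4:**
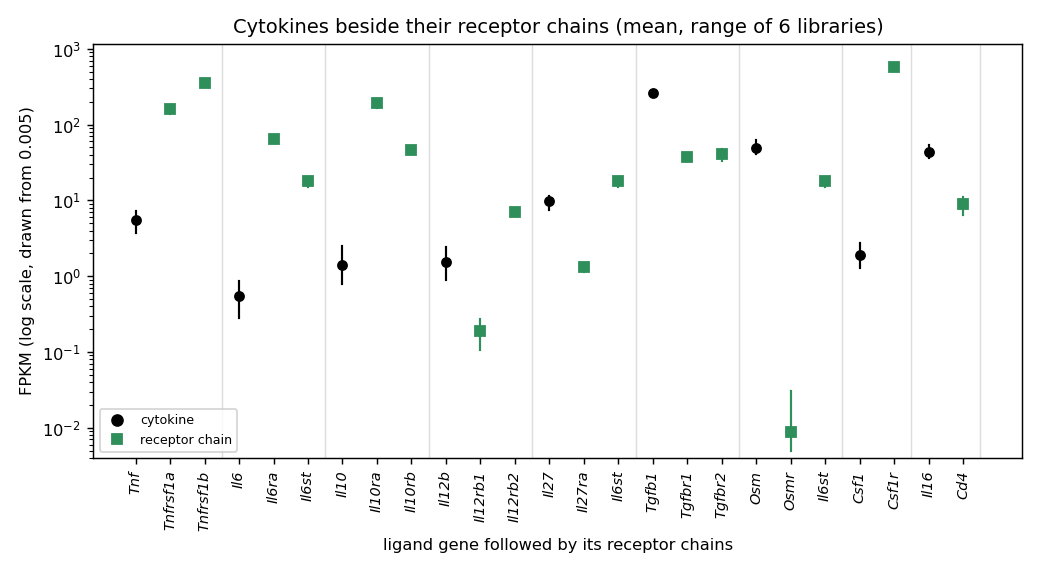
Mean FPKM (log scale, drawn from 0.005) over the 6 libraries of each cytokine gene (black circles) followed by its receptor chains (green squares), with lines from the lowest to the highest library. The receptor chains of TNF, IL-6, IL-10 and M-CSF lie above their ligands, while Tgfb1, Osm and Il16 lie above the chains Tgfbr1 and Tgfbr2, Osmr and Cd4.

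Of a list of 18 receptor genes, 17 were tested, 1 was called higher and 0 lower in Van. The receptor called was Lifr, which pairs with gp130 to bind LIF and related cytokines of the IL-6 family. At an unadjusted p under 0.05, 3 were higher (Lifr, Il6ra and Il6st) and 3 lower (Il10ra, Tgfbr2 and Eng), beside 16.5% of all genes, and over the 17 tested the median log2 fold change was 0.05. Il6ra measured 633, 605 and 591 CPM in Con and 689.5, 655 and 698 CPM in Van (log2 fold change 0.16, adjusted p = 0.191, edgeR). Il6st measured 185, 150.2 and 153 CPM in Con and 191, 192 and 189 CPM in Van (log2 fold change 0.23, adjusted p = 0.209). The groups were separate for both IL-6 receptor chains, as for 22.5% of all genes, and neither passed the test. Il10ra measured 839.6, 844 and 862 CPM in Con and 830.2, 687 and 676 CPM in Van (log2 fold change -0.21, adjusted p = 0.232, and 0.0477 without Van replicate 1). Tnfrsf1b (log2 fold change 0.06, adjusted p = 0.76) and Csf1r (0.08, adjusted p = 0.641) were close to 0.

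Of the receptors and related ligands, 3 genes were called, Lifr among the 17 receptors tested and Clcf1 and Lif among the 4 related ligands tested, where 2% of all genes were called. They are set side by side here because each is a ligand or receptor chain of the IL-6 family, which was not itself a list fixed for testing. Lifr (chr15:7090614-7197489, plus strand) measured 36.7, 37.2 and 42 CPM in Con and 102, 84.6 and 73.4 CPM in Van. Every Van mouse was above every Con mouse, and Van was 2.24-fold higher (95% interval 1.86 to 2.7, log2 fold change 1.16 ± 0.12 SE, adjusted p = 0.00537, edgeR). Clcf1 (chr19:4214238-4223490, plus strand), a ligand that signals through LIFR and gp130, measured 17.5, 15.7 and 17.2 CPM in Con and 29.6, 25.4 and 25.8 CPM in Van (log2 fold change 0.68 ± 0.09 SE, adjusted p = 0.0131, edgeR). Lif (chr11:4257557-4272514, plus strand), the ligand that gave LIFR its name, was lower in each Van mouse (7.11, 6.52 and 5.66 CPM) than in each Con mouse (9.12, 10.8 and 11.1 CPM), with a log2 fold change of -0.68 ± 0.13 (SE, adjusted p = 0.0411, edgeR). Lifr kept an adjusted p of at most 0.0361 with each library left out in turn, but had 0.107 and 0.0727 in limma on FPKM. Clcf1 had adjusted p-values of 0.0368 to 0.0721 with a library left out, and was not called without Con replicate 2, Con replicate 3 or Van replicate 2, its log2 fold change staying between 0.61 and 0.72. In limma on FPKM it was not called either (adjusted p = 0.157 and 0.132). Lif overlapped between the groups on the FPKM scale (1.91 in Con replicate 1, 2.05 in Van replicate 1), where limma gave log2 fold changes of -0.29 and -0.41 (adjusted p = 0.515 and 0.496). Lif was also not called once any 1 of the 6 libraries was left out (adjusted p = 0.0575 to 0.156), while its log2 fold change stayed between -0.77 and -0.60. Clcf1 shares 167 bases of exon on the same strand with AC109138.7, so that its counts are uncertain. The symbol Clcf1 stands on 2 identifiers, and the values given are those of ENSMUSG00000040663 alone.

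**Figure D5:**
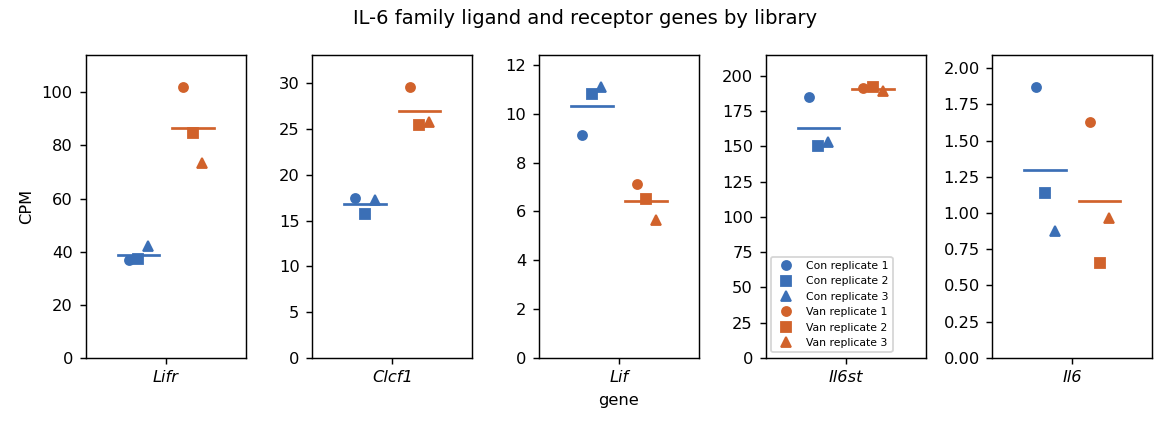
CPM of Lifr, Clcf1, Lif, Il6st and Il6 in each library (y axes start at 0 and differ between panels), Con in blue and Van in orange, with bars at the group means. Lifr and Clcf1 are higher and Lif is lower in every Van mouse, while Il6 overlaps between the groups.

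Some markers of other cells moved in the same libraries. Stromal and endothelial markers summed to 137 to 147 CPM in Con and to 249, 222 and 175 CPM in Van replicates 1, 2 and 3. Of the 9 tested 1 was called higher, Pecam1, at 63.4, 50.5 and 60 CPM in Con and 170.3, 118 and 95 CPM in Van. Pecam1 thus carried most of that sum's difference, while 5 of the 9 had log2 fold changes above 0 and 4 below 0, with a median of 0.08. At an unadjusted p under 0.05 in edgeR, 2 of the 9 were higher and 0 lower, beside 16.5% of all genes. The erythroid sums given above were highest in Van replicate 2, and red pulp macrophage markers summed to 3041 to 3569 CPM in Con and 3616 to 4604 CPM in Van with 0 of 10 called, 6 higher and 1 lower at an unadjusted p under 0.05, and a median log2 fold change of 0.25. Of 10 monocyte markers, 2 were called lower, Ccr2 (757, 757 and 679.5 CPM in Con, 316, 444 and 473 CPM in Van) and Fcgr1 (74.3, 78.1 and 74.3 CPM in Con, 59, 62.1 and 60.2 CPM in Van). Their part in the changes of Lifr, Clcf1 and Lif was not tested.

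Of 18 related ligands of the families of the 10 cytokines, 4 were tested (Clcf1, Lif, Cntf and Tgfb2), with Clcf1 higher and Lif lower, and 7 were at 0 in all libraries, among them Il11, Il22, Il31, Csf2 and Csf3. Cntf, the next most abundant of the list, had 0.335 FPKM and no call (adjusted p = 0.768, edgeR). Of 19 tested genes for the maturation and release of these cytokines 0 were called by edgeR or limma, and 1 had an unadjusted p under 0.05 in edgeR, Itgav, an integrin chain that takes part in activating latent TGF-β. Itgav measured 193, 147 and 158 CPM in Con and 144, 113 and 111 CPM in Van (adjusted p = 0.131 in edgeR, 0.0115 in DESeq2 and 0.0453 with the replicate number as a block). Thbs1 (293 FPKM), Nrros (123 FPKM) and Vamp3 (46.4 FPKM) were the most abundant of the list, and Adam17, the protease that sheds TNF, measured 191, 172 and 191 CPM in Con and 185, 189.9 and 182 CPM in Van (adjusted p = 0.973).

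Of 23 genes for mRNA decay and translation, which include the factors that bind the AU-rich stretches shown above, 0 were called by edgeR, 5 had an unadjusted p under 0.05 (Mapk14, Elavl1 and Khsrp higher, Hnrnpd and Rc3h2 lower, beside 16.5% of all genes), and 2 were called by DESeq2 (Hnrnpd and Mapk14). Zfp36, tristetraprolin, was among the most abundant transcripts at 1009.7 FPKM, with 2112, 2972 and 1931 CPM in Con and 1868, 1884 and 2184 CPM in Van (log2 fold change -0.24 ± 0.15 SE, adjusted p = 0.477, and between -0.359 and -0.031 with a library left out). Pabpc1 (422 FPKM) and Zfp36l2 (291 FPKM) followed, with log2 fold changes of 0.01 and -0.13. Hnrnpd, which encodes the AU-binding protein AUF1, measured 137, 152 and 166 CPM in Con and 121, 119 and 124 CPM in Van (log2 fold change -0.32, adjusted p = 0.069 in edgeR and 0.00399 in DESeq2). Mapk14, the p38α kinase, measured 446, 425 and 446 CPM in Con and 492, 498 and 502 CPM in Van (log2 fold change 0.18, adjusted p = 0.113 in edgeR and 0.0139 in DESeq2).

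Of 27 other cytokine genes, 15 were tested, 0 were called by edgeR and 1 by DESeq2 (Il1a), and 8 were at 0 in all libraries, among them Il2, Ifng, Il13 and Il5. Il1b was the most abundant at 176 FPKM, with 342, 263 and 267 CPM in Con and 284, 266 and 217 CPM in Van (log2 fold change -0.19 ± 0.13 SE, adjusted p = 0.527, and between -0.269 and -0.056 with a library left out). Il18 (43.5 FPKM) and Mif (29.8 FPKM) had log2 fold changes of 0.03 and 0.11. Il1a, the one gene of the list with an unadjusted p under 0.05, measured 8.43, 10.3 and 9.86 CPM in Con and 6.83, 5.87 and 5.35 CPM in Van. Each Van mouse was below each Con mouse, and the log2 fold change of -0.66 ± 0.14 (SE) had an adjusted p of 0.0508 in edgeR and of 0.00316 in DESeq2.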

How the data were processed

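Splenic monocyte mRNA of 3 Con and 3 Van mice was compared. The authors made the expected counts from reads aligned to GRCm38 with HISAT2 2.2.1, processed with SAMtools 1.9 and assembled with StringTie 2.1.3, through tximport 1.26.1, and the counts were used as deposited. FPKM values were deposited as the authors obtained them from StringTie and Ballgown. Annotation release, handling of reads with several alignments and use of the strand in counting are not stated, while the library kit (Illumina TruSeq Stranded mRNA) keeps the strand. Reads are stated as 100 bases, while the decimals of the counts fit 75.

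The estimated counts were rounded and tested in R 4.3.3 with edgeR 4.0.16 (TMM, expression filter at a minimum count of 10, quasi-likelihood test, group as the only term), with Benjamini-Hochberg adjustment over the 16138 genes tested. Genes whose adjusted p did not exceed 0.05 were called. Tests were checked on simulated data. Alternatives were DESeq2 1.42.0, other scalings and filters, the replicate number as a block, limma 3.58.1 on log2(FPKM + 1) or log2(FPKM + 0.1), a single identifier per symbol, the fragment scale and each library left out. The labels name no batch, and libraries of a group differed by more than counting error. Levels of different genes were compared as FPKM. Genes named are the 10 cytokines, the called genes and the 3 of highest FPKM in each of 5 lists (receptors, related ligands, maturation, mRNA decay and translation, other cytokines), the 3 genes most alike to Tnf and Il6, and defining markers. Il12a, Il23a, Osmr, Adam17 and other receptor genes were named for their role, and list genes with an unadjusted p under 0.05, and the other single markers, after their values were seen. The cytokines and lists were chosen with earlier results of these data known. Further marker lists, for neutrophils, T, regulatory T, B, plasma, NK and dendritic cells, basophils and mast cells, are given in the closing section.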

Additional observations from a re-analysis of the deposited data

How the results depend on the processing

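Of the 10 cytokine genes, 0 were called in each of the 16 alternative analyses, whereas the number of all genes called (322) was 962 in DESeq2, 110 with the replicate block, 11 and 21 in limma on log2(FPKM + 1) and log2(FPKM + 0.1), and 21 to 136 with a library left out. The log2 fold changes of Il27, Ebi3 and Tgfb1 kept their sign throughout, with ranges of -0.285 to -0.002, -0.074 to -0.022 and -0.116 to -0.081 when a library was left out. Those of the others then ranged from -0.161 to 0.308 for Tnf, -0.672 to 0.108 for Il6, -0.463 to 0.454 for Il10, -0.752 to 0.067 for Il12b, -0.171 to 0.18 for Osm, -0.303 to 0.277 for Csf1 and -0.199 to 0.082 for Il16. Among abundant list genes they ranged from -0.065 to 0.085 for Il18, -0.053 to 0.082 for Nrros, -0.005 to 0.026 for Pabpc1, -0.048 to 0.253 for Thbs1 and -0.056 to 0.113 for Vamp3. In limma on log2(FPKM + 1) and log2(FPKM + 0.1), Csf1 was 0.004 and 0.026 and Nrros -0.024 and -0.024. The causes were not tested.

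The number of receptors called was 2 in DESeq2 (with Tgfbr2), 0 and 0 in limma, and 1 to 2 with a library left out. Related ligands gave 1 with the replicate block, which lost Lif (adjusted p = 0.113), 0 and 0 in limma, and 0 to 1 with a library left out. Maturation genes gave 1 in DESeq2 and 1 with the replicate block, genes of mRNA decay and translation 2 in DESeq2 and 0 to 1 with a library left out, and other cytokines 1 (Il1a) in DESeq2, with library size alone, with no filter, with at least 10 counts in every library and on the fragment scale. The replicate numbers showed no sign of pairing the mice, as the correlations of same-numbered deviations were 0.065, -0.027 and -0.15. Those of differently numbered deviations were between -0.114 and 0.141. With 3 mice a group this check cannot exclude a pairing. Counting error was largest for Il6, with 12.5 to 37.3 fragments a library.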

Other observations

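Lymphocytes also make several of these cytokines, and the summed CPM of their T, regulatory T and B cell marker lists was lower in every Van library than in every Con library. The sums were 22 to 32 in Con and 16 to 20.3 in Van for 12 T cell markers, 8.65 to 9.47 and 5.1 to 7.96 for 6 regulatory T cell markers, and 47.7 to 49.8 and 37.2 to 40.4 for 10 B cell markers. Of those tested, 2 T cell markers (Cd3e at 0.116 and Cd8b1 at 0.368) and 1 regulatory T cell marker (Ctla4 at 0.675) had log2 fold changes above 0. Below 0 were 10, 5 and 9 of the T, regulatory T and B cell markers. The sum of 8 NK cell markers (26.4 to 39.5 in Con and 14.9 to 22.2 in Van) was mostly Klrk1 (38.2, 24.7 and 31.2 in Con and 20.7, 15.5 and 14 in Van), and of the 5 tested 2 had a log2 fold change above 0 and 3 below. None of the T, regulatory T or B cell markers was called by edgeR (4, 1 and 2 had an unadjusted p under 0.05), and of the NK cell markers Klrk1 was called lower. Neutrophil markers summed to 43.3 to 67.1 CPM in Con and 36.1 to 92.9 in Van, mostly Mmp8 (30.4 to 89.6 CPM over the 6 libraries). Of the 9 neutrophil markers tested 8 had a log2 fold change below 0 (median -0.92), with 0 called by edgeR and 1, Retnlg, at an unadjusted p under 0.05. Basophil and mast cell markers summed to 3.48 to 4.55 and 2.13 to 3.44, with 0 called, plasma cell markers to 405 to 435 and 399.9 to 428, with 0 called, and dendritic cell markers to 235 to 261 and 226 to 249, with Clec9a called lower. The part of such cells in the levels of the 10 cytokine transcripts was not tested.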
